A study of Mus musculus with 27 samples.

Results

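Infarct tissue was compared with remote myocardium inside the same heart in 6 control mice, 7 days after myocardial infarction. The 12 libraries were chosen by their titles, which name the control group, the region and the mouse (numbers 9170, 9171, 9180, 9182, 9183 and 9184), and make up 12 of 27 bulk RNA libraries of the study; the other 15 come from mice fed adenine to induce chronic kidney disease (CKD). All mice were male ApoE-/- animals of the C57BL/6J strain on a western type diet, which the controls ate throughout without adenine and which was given for 4 weeks before adenine began in the other group. ApoE-/- mice on such a diet have raised blood lipids and develop atherosclerosis, so both regions come from hearts of that background, and no heart without an infarct is part of the comparison. Age, the way the infarct was made and the way the pieces were cut are not given in the sources used here.

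An infarct kills heart muscle cells that mouse hearts do not replace. After the first days, macrophages clear the debris and fibroblasts divide, become contractile myofibroblasts and fill the area with collagen, while the muscle away from the infarct goes on beating. Muscle of the working ventricle lives mainly on fatty acid oxidation in densely packed mitochondria, whereas scar-forming and inflammatory cells carry few of them. In bulk tissue, fewer cells of a type and less RNA per cell cannot be told apart, which holds for every difference given here.

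Total counts ran from 17699794 to 42566498 in remote and from 15962275 to 24652545 in infarct libraries. Levels are given as CPM, which are counts scaled by the library total times its TMM normalisation factor, and for 6 libraries as lowest, median and highest. These factors ran from 0.7845 to 1.015 in remote and from 1.127 to 1.233 in infarct libraries. Apoe, the gene inactivated in these mice, was counted at 14.3, 19.9 and 21.6 CPM in remote and at 10.7, 26 and 36.7 CPM in infarct libraries. Its log2 fold change, infarct against remote as everywhere below, was 0.28 ± 0.21 (SE; adjusted p = 0.275), so Apoe reads were present in every library and the levels of the regions overlapped. Which part of the gene the targeted allele lacks was not analysed here.

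Both labels were checked against defining genes of the tissues. All 25 genes of a sarcomere list were measured in remote tissue, and the fibrillar collagen Col1a1 was at 9030 CPM or more in every infarct library. The remote library of mouse 9180 lay between the groups on the first principal component, which held 75.7% of the variance. Its score was 6.86, against -99.23 to -58.89 in the other remote and 42.47 to 113.51 in the infarct libraries. Col1a1 was at 4290 CPM in it and Cthrc1, a gene of scar fibroblasts, at 166 CPM, while the other 5 remote libraries held 183 to 1130 and 0.274 to 14.4 CPM. It is kept under its label, and results are also given without mouse 9180. The remote libraries of mice 9170 and 9171 held atrial genes that the others lacked: Myl7, the atrial myosin light chain, was at 272 and 166 CPM in them and at 0.546 to 0.864 CPM in the other 4. Sln, an atrial regulator of the calcium pump, was at 47.7 and 33.1 CPM against at most 0.0684 CPM. Infarct libraries of the same mice held 0.165 to 0.994 CPM of Myl7 over all 6, and the part of atrial tissue in results on remote tissue was not tested.

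The comparison asks which genes separate scar from surviving muscle. Of 14328 genes with enough counts, 9038 (63.1%) differed at an adjusted p below 0.05, 4644 of them higher (32.4%) and 4394 lower (30.7%) in infarct tissue. The test was the quasi-likelihood F test of edgeR with mouse as a block, adjusted by Benjamini-Hochberg over all genes tested, and "called" below means past that threshold. With mouse as a block, the p-values rest on how the difference between regions varied over the 6 hearts. Differences in level between mice are taken up by the block. The median over all genes was 0.03, and -0.02 without mouse 9180. Of the called genes, 8065 moved the same way in 6 of 6 hearts and 9013 in 5 or 6. Of all 14328 genes tested, 8561 moved the same way in 6 of 6 hearts. The calls were made on these same differences, so the agreement between hearts is no separate support for them. The levels of infarct and remote libraries did not overlap for 4896 genes (34.2%), 2382 higher and 2514 lower. Since most genes were called, a list in which 6 of 10 genes are called is no different from the background, and the direction and size of changes carry more than the bare count.

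Tested against a change of 2-fold instead of 0, 1051 genes (7.34%) were higher and 758 (5.29%) lower by more than 2-fold. This count depended on which mice were in. It was 0 without mouse 9170, 9182 or 9183, where edgeR on 5 hearts gave its lowest adjusted p at 0.0583, 0.0595 and 0.066, and 2922, 2737 and 2667 genes had an unadjusted p under 0.05. It was 923 without mouse 9171 and 755 without 9184, and rose to 2966 (1552 higher, 1414 lower) without 9180. Genes are called below by the test against 0, whose count stayed between 7775 and 9378 whichever mouse was left out.

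**Figure D1:**
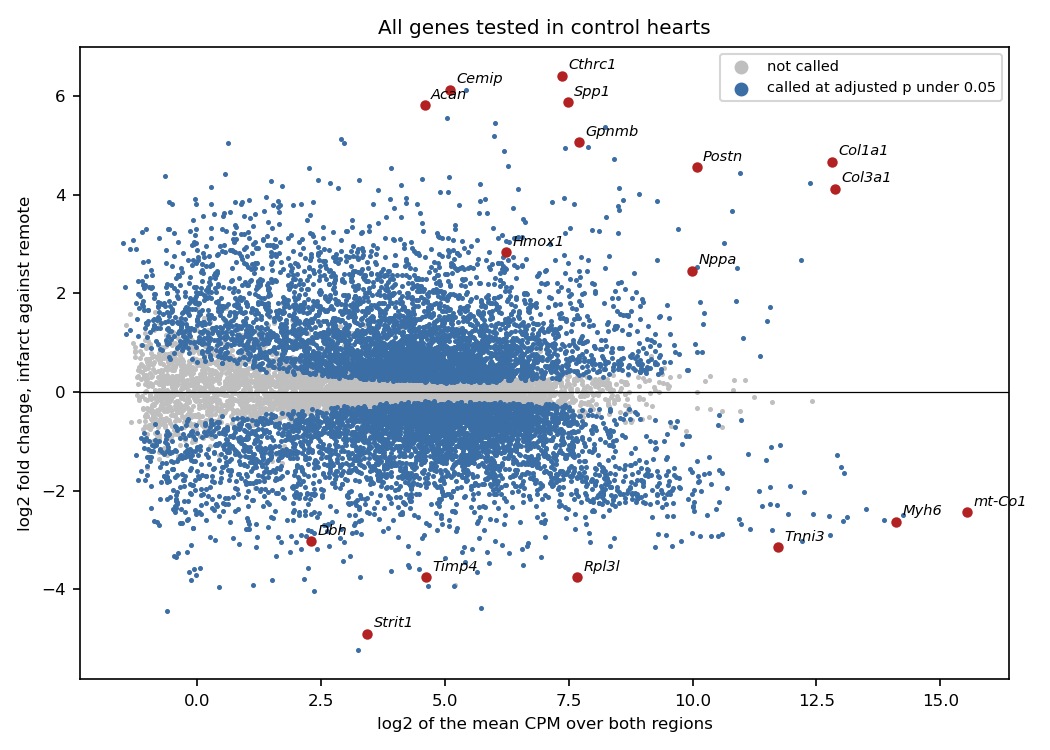
Each point is 1 of the 14328 genes tested, with its log2 fold change between infarct and remote tissue (vertical) against the log2 of its mean CPM over both regions (horizontal). Blue points were called at an adjusted p below 0.05, grey points were not, and red points are genes named in the text. Scar genes such as Cthrc1 (6.41) and Col1a1 (4.67) lie at the top, and muscle and mitochondrial genes such as Myh6 (-2.63) and mt-Co1 (-2.43) at the lower right among the most abundant transcripts.

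Contractile genes of heart muscle were lower in infarct tissue. None of the 25 genes of the sarcomere list was higher, 21 were called lower, and the list's median log2 fold change was -1.73, against 0.03 over all genes and -1.98 without mouse 9180. Tnni3, cardiac troponin I, stood at 3010, 6800 and 7260 CPM in remote and 84.4, 1040 and 1540 CPM in infarct libraries. The regions did not overlap, and the lowest infarct value was that of mouse 9171 and the lowest remote value that of 9180. Its log2 fold change was -3.14 ± 0.63 (adjusted p = 0.00339), lower in 6 of 6 hearts. Myh6, the main myosin heavy chain of the adult mouse ventricle, was at 13300, 31300 and 37500 CPM against 603, 6270 and 10400 CPM, again without overlap (-2.63 ± 0.69, adjusted p = 0.0112). By heart, the median of the list ran from -0.71 in mouse 9180 to -3.93 in mouse 9171, and mouse 9183 was next to 9171 at -2.15.

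Sarcomere genes are classical targets of serum response factor, which binds the CArG box (CC, then 6 of A or T, then GG). RefSeq promoters of GRCm38.p6 were at hand for 643 of 864 genes in the lists. In these windows of 250 bases before to 50 bases after the gene start, 5 of 21 sarcomere genes with a promoter in that table held a CArG box (23.8%, both strands searched, as for every motif below), against 1.57% of all 27025 promoters and 1.27% of the 11203 promoters of genes tested here. None of 11 activated fibroblast promoters (of 18 genes) and none of 12 smooth muscle promoters (of 16 genes) held these exact letters in this window. Sites with other letters, outside the window or of genes without an entry were not searched. A MEF2 site, the other classical muscle element, stood in 4 of 21 (19%, against 3.26% of all promoters and 1.84% of those of tested genes). The stretches around the CArG boxes of cardiac actin and of a ventricular myosin light chain are shown 5′ to 3′ on the gene's strand, with the box in capitals, since these are sarcomere genes of both kinds of filament that were lower in infarct tissue.
Actc1, chr2:114052888-114052947 (- strand): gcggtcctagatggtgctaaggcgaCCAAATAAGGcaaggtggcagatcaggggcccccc
Myl3, chr9:110763568-110763627 (+ strand): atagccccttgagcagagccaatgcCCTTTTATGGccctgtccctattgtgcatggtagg

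Myl3 was at 4880, 8460 and 9730 CPM in remote and 97.7, 1580 and 2480 CPM in infarct libraries (-3.03 ± 0.73, adjusted p = 0.00757). Actc1, which encodes cardiac actin, was less reduced, at 8420, 9650 and 14500 against 1610, 4330 and 7180 CPM (-1.27 ± 0.45, adjusted p = 0.0368). The regions did not overlap for either gene, yet the call of Actc1 was lost without mouse 9170 (-1.42, adjusted p = 0.058), 9182 (-1.34), 9183 (-1.30) or 9184 (-1.18). Whether Actc1 and Myl3 differ from each other in this was not tested.

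Genes of calcium handling and of the electrical cycle were lower as well. Of 13 calcium handling genes tested, 11 were lower and none higher, with a median of -1.63 (-1.88 without mouse 9180). Atp2a2, the calcium pump of the sarcoplasmic reticulum, was at 2810, 8430 and 13500 CPM in remote and 631, 1960 and 3030 CPM in infarct libraries. The ranges met only through the remote library of mouse 9180, and the gene was lower in every heart (-2.03 ± 0.51, adjusted p = 0.00906). Ryr2, the calcium release channel, fell by 1.73 ± 0.40 on the log2 scale (adjusted p = 0.00675). Of 17 ion channel and gap junction genes, 15 were lower and 1 was higher (median -1.78). Kcnip2, a subunit of the channel for the transient outward potassium current, was at 57.7, 176 and 247 CPM against 1.88, 31.1 and 58.6 CPM (-3.06 ± 0.73, adjusted p = 0.00736). The gene that went the other way was Gja5, the connexin of atrial and conduction cells and of arterial endothelium (0.62 ± 0.23, adjusted p = 0.0422), which was not called without mouse 9171, 9180, 9182 or 9183 (0.47 to 0.64, adjusted p = 0.0572 to 0.119).

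Transcription factors of heart muscle were lower in 14 of 16 cases and higher in 1 (median -1.28). Esrrg, a nuclear receptor that drives mitochondrial genes, was at 10.1, 23 and 26.5 CPM against 3.0, 7.75 and 10.9 CPM (-1.66 ± 0.30, adjusted p = 0.00231), and the remote library of mouse 9180 was the one that reached into the infarct range. Tbx20, which acts in the developing and adult heart and in endocardial cells, was called higher (0.41 ± 0.13, adjusted p = 0.0253), although not without mouse 9170, 9180, 9182 or 9183 (0.31 to 0.40, adjusted p = 0.0658 to 0.076).

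Stress and fetal genes of heart muscle had no common direction. Of 15 tested, 4 were higher, 4 lower and 7 not called, with a median of 0.25 that was -0.03 without mouse 9182. Nppa, atrial natriuretic peptide, was at 40.7, 195 and 2010 CPM in remote and 409, 1900 and 2470 CPM in infarct libraries, higher in 6 of 6 hearts (2.46 ± 0.74, adjusted p = 0.0194). Its highest remote value was that of mouse 9180, and the call was lost without mouse 9170 (2.14, adjusted p = 0.0606) or 9183 (2.30, adjusted p = 0.0611). Nppb, the related peptide of the ventricle, was at 236, 606 and 1230 against 157, 434 and 821 CPM and was not called (-0.51 ± 0.40, adjusted p = 0.291). Neither were Ankrd1 (0.25 ± 0.41) and skeletal actin Acta1 (-0.69 ± 0.82), for which 3 hearts were higher and 3 lower. The difference between Nppa and Nppb was not tested.

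**Figure D2:**
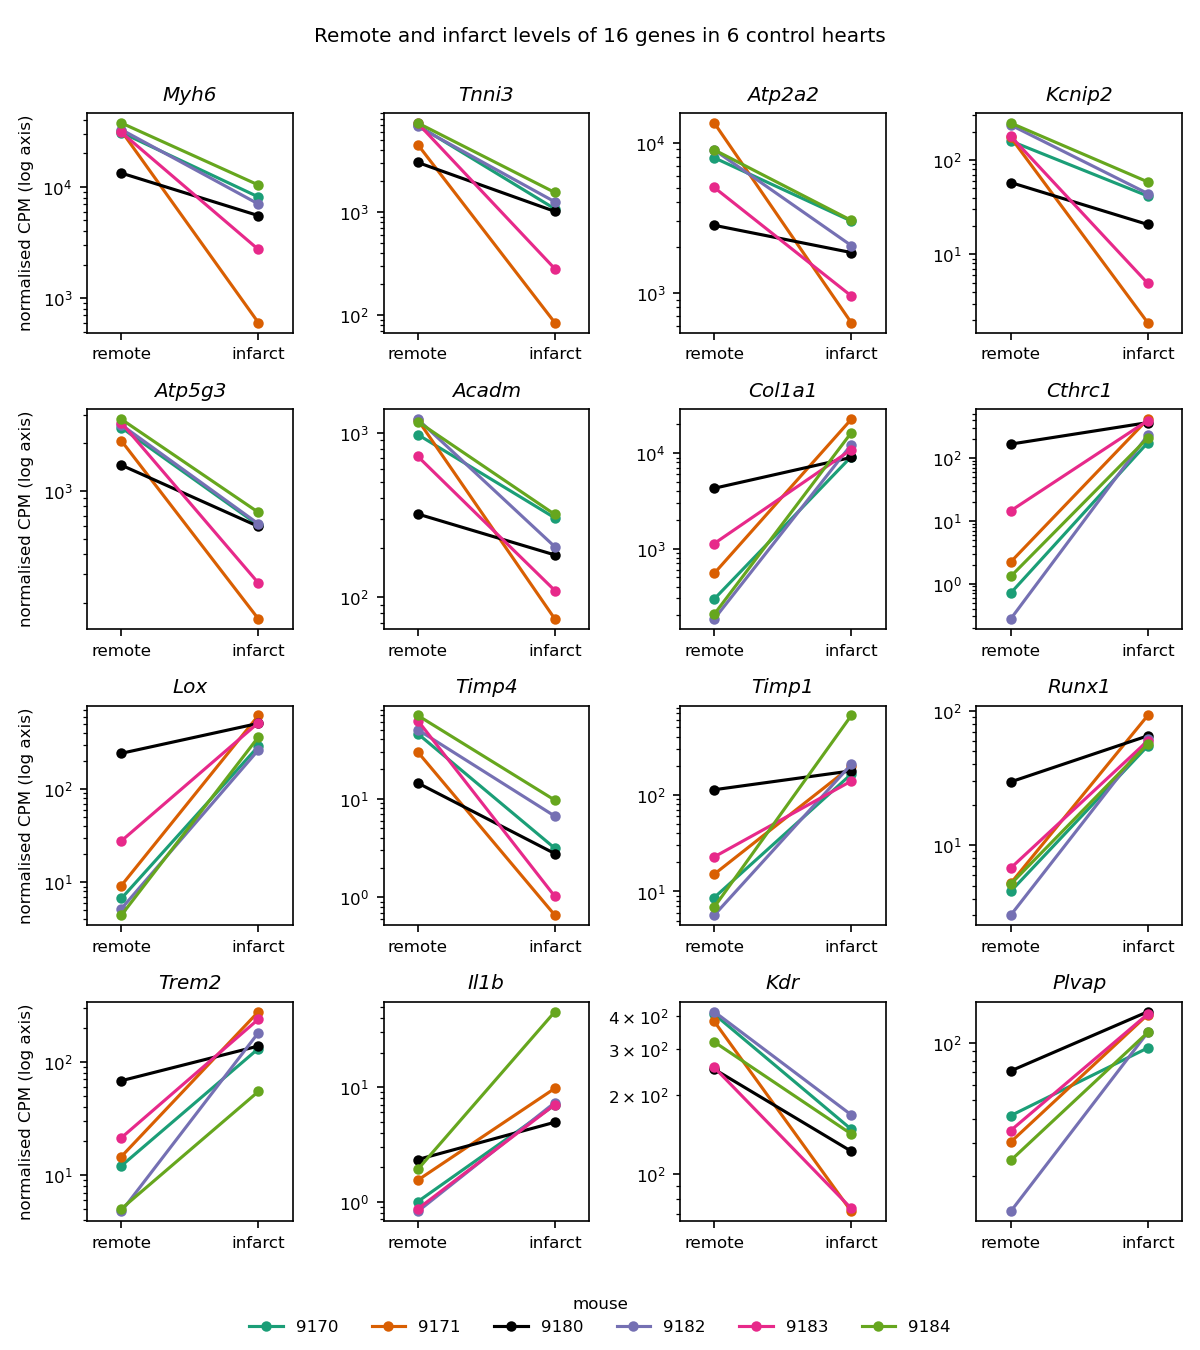
Normalised CPM (log axis) of 16 genes in the remote and infarct library of each control heart, with 1 line per mouse. Muscle and mitochondrial genes and Timp4 slope down and scar and macrophage genes slope up in all 6 hearts, as does Plvap upward and Kdr downward. The remote point of mouse 9180 is the nearest to the infarct points for most of the genes.

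Mitochondrial energy genes were lower throughout. All 28 nuclear genes of oxidative phosphorylation tested were called lower, with no overlap between regions for any of the 28, a median of -2.07 (-2.34 without mouse 9180) and a range from -2.49 to -1.61. Cycs, cytochrome c, was at 746, 1160 and 1410 CPM in remote and 95, 360 and 422 CPM in infarct libraries (-2.08 ± 0.35, adjusted p = 0.00172). Sdhb, the iron-sulfur subunit of complex II, was at 649, 1230 and 1400 against 94.4, 304 and 377 CPM (-2.28 ± 0.33, adjusted p = 0.00116). Mouse 9171 had the lowest infarct value of both, and mouse 9180 the lowest remote value. Atp5g3, a subunit of the membrane ring of ATP synthase, was at 1450, 2540 and 2810 against 158, 605 and 734 CPM (-2.38 ± 0.36, adjusted p = 0.00127).

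These 3 genes carry in their promoters a textbook element of mitochondrial gene control, shown in capitals: the NRF1 core (GCGCATGC, here read on the opposite strand as its reverse complement) before Cycs and Sdhb, and the estrogen-related receptor element (TCAAGGTCA, likewise on the opposite strand) before Atp5g3.
Cycs, chr6:50566597-50566654 (- strand): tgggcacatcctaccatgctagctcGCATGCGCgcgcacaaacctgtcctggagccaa
Sdhb, chr4:140961192-140961249 (+ strand): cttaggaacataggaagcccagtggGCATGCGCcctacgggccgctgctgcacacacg
Atp5g3, chr2:73911345-73911403 (- strand): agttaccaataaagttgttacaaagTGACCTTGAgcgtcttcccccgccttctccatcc
The NRF1 core stood in 3 of 20 oxidative phosphorylation promoters with an entry (15.0%) and in 3 of 20 of fatty acid genes (15.0%), against 2.80% of all promoters and 5.04% of those of tested genes, and in none of 13 of the tricarboxylic acid cycle. The estrogen-related receptor element stood in 2 of 20 (10.0%), against 0.407% of all and 0.303% of tested genes' promoters, and in none of the other 2 lists. All 28 oxidative phosphorylation genes were lower, with or without these letters in the window.

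The 13 protein genes of mitochondrial DNA were also all lower (median -2.49, -2.79 without mouse 9180), from -2.68 to -2.16. Their share of all counts was 18 ± 3.24% (SD, n = 6) in remote and 4.98 ± 2.24% (n = 6) in infarct libraries. Within hearts the share dropped by 13 percentage points on average, from 6.13 in mouse 9180 to 17 in mouse 9183 (exact two-sided sign-flip permutation test over 6 hearts, p = 0.0312, the smallest p it can give). With 5 hearts this exact test cannot pass (p = 0.0625), and the mean was -14.4 without mouse 9180. The lowest share of all, 1.44%, was that of the infarct of mouse 9171. mt-Co1, a core subunit of cytochrome oxidase, was at 41600, 83400 and 92400 against 4510, 19100 and 23900 CPM (-2.43 ± 0.67, adjusted p = 0.0137), and its call was lost without mouse 9183 (-2.28, adjusted p = 0.061).

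Pathways that feed the mitochondria were lower too. All 24 genes of fatty acid uptake and oxidation (median -2.25), all 15 of the tricarboxylic acid cycle (-1.87) and all 15 of branched-chain amino acid and ketone use (-1.69) were called lower. Acadm, which oxidises medium-chain fatty acids, was at 321, 1070 and 1210 CPM in remote and 73.9, 192 and 319 CPM in infarct libraries (-2.27 ± 0.40, adjusted p = 0.00201). Hadha, the alpha subunit of the trifunctional protein of long-chain oxidation, fell by 2.23 ± 0.35 on the log2 scale (adjusted p = 0.00142) and Bdh1, which handles ketone bodies, by 2.21 ± 0.66 (adjusted p = 0.0194). Of 14 genes that buffer and shuttle energy, 10 were lower and 1 was higher (median -1.27). Mb, myoglobin, was at 4480, 9730 and 10600 against 297, 2430 and 3070 CPM (-2.47 ± 0.59, adjusted p = 0.00732), without overlap.

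Glycolysis genes moved in both directions. Of 24 genes, 14 were lower and 7 higher (median -0.65, 19 without overlap between regions). Pgam2, the muscle phosphoglycerate mutase, was at 725, 921 and 1240 CPM in remote and 30.3, 259 and 305 CPM in infarct libraries (-2.54 ± 0.51, adjusted p = 0.00356). Slc2a4, the insulin-responsive glucose transporter, fell by 2.41 ± 0.49 on the log2 scale (adjusted p = 0.00377). Hk3, a hexokinase of myeloid cells, went from 1.91, 2.77 and 7.59 to 9.31, 15.5 and 28.3 CPM (2.33 ± 0.32, adjusted p = 0.00104), and Slc2a1, the widespread glucose transporter, from 17.8, 21.4 and 33.7 to 36.2, 37 and 51.8 CPM (0.82 ± 0.14, adjusted p = 0.00165). Neither gene overlapped between the regions. Of 15 genes of the pentose phosphate route and nucleotide synthesis, 7 were higher and 2 lower (median 0.26). The number lower was 4 without mouse 9180 and 1 without mouse 9171, 9182 or 9184.

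Ratios of paralogs within a library do not depend on how libraries are scaled, so 20 pairs with a muscle or adult form over a widespread or fetal form were compared. In 18 of 20 pairs the log2 ratio was lower in infarct tissue in 6 of 6 hearts (exact two-sided sign-flip permutation test, p = 0.0312 for each, adjusted p = 0.0347 over the 20 pairs). Ckm over Ckb, the muscle and the widespread creatine kinase, went from 3.58 ± 0.98 (SD, n = 6) to 0.27 ± 1.82, a mean difference of -3.31 ± 1.85. Cox6a2 over Cox6a1, subunits of cytochrome oxidase, changed by -2.74 ± 1.60, and Slc25a4 over Slc25a5, carriers of ADP and ATP, by -1.78 ± 0.75. Eno3 over Eno1 changed by -3.44 ± 1.54, Ldhb over Ldha by -1.73 ± 0.92 and Fabp3 over Fabp5 by -3.53 ± 2.08. The members of these pairs therefore changed unequally. With 5 hearts the smallest p of this test is 0.0625.

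Among contractile proteins, Myh6 over Myh7, the adult over the fetal myosin of the mouse ventricle, fell by 1.92 on the log2 scale (SD 0.83), and Tnni3 over Tnni1 by 4.01 (SD 2.14), a ratio that involves very few Tnni1 counts. Mef2a over Mef2c, muscle transcription factors, was lower in 4 of 6 hearts (-0.24, SD 0.38, exact permutation p = 0.219). The largest mean difference of the 20 pairs was that of Timp4 over Timp1, inhibitors of matrix proteases, at -7.72 (SD 2.37). Cpt1b, the muscle carnitine palmitoyltransferase, was counted below Cpt1a in remote tissue, so the counts of Cpt1b, which shares its locus with a neighbouring gene, are taken as uncertain.

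**Figure D3:**
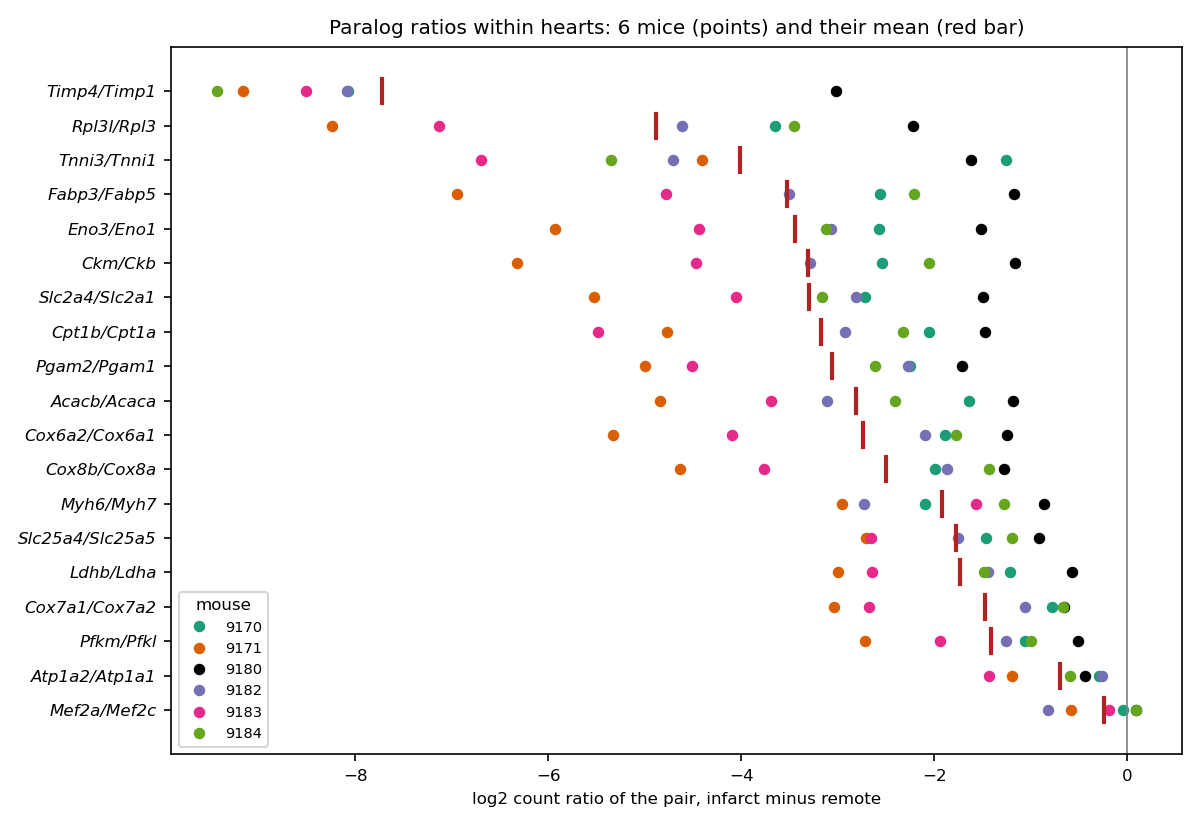
Difference between infarct and remote tissue in the log2 count ratio of paralog pairs (horizontal), with 1 point per heart and a red bar at the mean. All 6 points lie below 0 for 18 pairs, and for Mef2a/Mef2c they lie on both sides.

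Fibrillar collagens had the highest median of all 53 lists examined. Of 11 fibrillar collagen genes tested, 10 were higher and none lower, with a median of 4.12 (4.44 without mouse 9180). Col1a1, the alpha 1 chain of type I collagen, was at 183, 423 and 4290 CPM in remote and 9030, 11600 and 22700 CPM in infarct libraries (4.67 ± 0.85, adjusted p = 0.00233, and 5.19 without mouse 9180). Col3a1, the chain of type III collagen, was at 284, 661 and 4530 against 8970, 13300 and 18200 CPM (4.12 ± 0.75, adjusted p = 0.00235). The regions did not overlap for either, and in both the highest remote value was that of mouse 9180. Col11a1, best known from cartilage, was at 0, 0.503 and 33.6 against 13, 61.7 and 201 CPM (6.12 ± 1.10, adjusted p = 0.00225; 7.42 without mouse 9180 and 5.16 without 9171).

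Other collagens rose in 17 of 21 cases (median 1.75), and the 3 that fell were Col4a3 and Col4a4, minor chains of basement membrane collagen, and Col6a6. Col4a3 was at 1.92, 3.52 and 5.29 CPM in remote and 0.907, 1.52 and 2.05 CPM in infarct libraries (-1.23 ± 0.24, adjusted p = 0.00327), lower in every heart with slight overlap. Of 21 matricellular and scar glycoproteins, 20 were higher and none lower (median 3.23). Postn, periostin, a product of activated fibroblasts, was at 15.6, 63.3 and 1540 against 796, 1680 and 2660 CPM, where only the remote library of mouse 9180 reached the infarct range (4.55 ± 0.86, adjusted p = 0.00274). Fn1, fibronectin, was at 64.9, 128 and 1420 against 2200, 3150 and 6380 CPM (4.43 ± 0.65, adjusted p = 0.00115). Tnc, tenascin C, a transient protein of healing edges, was at 2.05, 10.3 and 146 against 183, 295 and 796 CPM (5.08 ± 1.18, adjusted p = 0.00648), and its log2 fold change was 5.80, 5.74 and 4.37 without mouse 9180, 9183 and 9184. Smoc2 was the member not called, at 0.02 ± 0.10, with medians of 116 and 114 CPM.

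Enzymes that hydroxylate, fold and cross-link collagen rose in 19 of 20 cases (median 1.89). Lox, lysyl oxidase, which starts the cross-links, was at 4.44, 7.97 and 242 CPM in remote and 263, 434 and 616 CPM in infarct libraries (4.97 ± 0.77, adjusted p = 0.00132). P4ha3, a prolyl hydroxylase subunit, was at 0.0684, 0.508 and 23.4 against 37.7, 56.2 and 105 CPM (5.56 ± 0.97, adjusted p = 0.002; 6.49 without mouse 9180 and 4.87 without 9171). Neither overlapped between the regions. Elastic fibre genes rose in 11 of 14 cases (median 2.09), with Eln, elastin, at 78.8, 170 and 1070 against 579, 2500 and 6760 CPM (3.66 ± 0.50, adjusted p = 0.00103). Small leucine-rich proteoglycans, which coat collagen fibrils, rose in 7 of 11 cases with a smaller median of 0.82. Dcn, decorin, differed by 0.80 ± 0.18 (adjusted p = 0.00562), from a median of 588 to 936 CPM without overlap.

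Matrix proteases and their inhibitors rose in 17 of 22 cases (median 2.24), and 2 fell. Mmp14, a membrane-bound collagenase, was at 28.2, 58.3 and 254 CPM in remote and 475, 563 and 1000 CPM in infarct libraries (3.23 ± 0.50, adjusted p = 0.00131). Timp1, the inducible inhibitor, was at 5.68, 11.9 and 113 against 139, 187 and 663 CPM (3.85 ± 0.78, adjusted p = 0.00355). Timp4, the inhibitor typical of heart muscle, was at 14.4, 47.7 and 69.7 against 0.658, 2.96 and 9.65 CPM (-3.76 ± 0.51, adjusted p = 0.00101). Both inhibitors kept the regions apart in every library but in opposite directions. The other member that fell was the membrane-bound protease Mmp15 (-1.84 ± 0.24, adjusted p = 0.00101).

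Activated fibroblast genes rose in 16 of 18 cases (median 2.23), whereas resting fibroblast genes were lower in 9 and higher in 4 of 16 (median -0.81). Lrrc15, on the activated list, was not called (-0.38). It was called lower without mouse 9180 (-0.58, adjusted p = 0.0483) or 9184 (-0.58, adjusted p = 0.0465). Cthrc1, a secreted protein that marks scar fibroblasts, was at 0.274, 1.75 and 166 CPM in remote and 175, 297 and 413 CPM in infarct libraries. The highest remote value, that of mouse 9180, just missed the lowest infarct value, and the log2 fold change was 6.41 ± 1.17 (adjusted p = 0.00235; 7.10 without mouse 9180). Runx1, a transcription factor of blood cells and of activated fibroblasts, was at 3.01, 5.16 and 29.6 against 54.8, 60.6 and 92.4 CPM (3.31 ± 0.42, adjusted p = 0.001). Fap, a surface protease of activated fibroblasts, rose by 1.82 ± 0.23 (adjusted p = 0.001) and Acta2, the actin of smooth muscle and myofibroblasts, by 1.36 ± 0.29 (adjusted p = 0.00463). Scara5, a receptor of resting fibroblasts, was at 8.12, 35.6 and 40.9 against 3.0, 6.51 and 18 CPM (-2.09 ± 0.33, adjusted p = 0.00141). Tcf21, the transcription factor used to mark resident cardiac fibroblasts, went the other way, from 10.8, 14.1 and 22.6 to 20.2, 36.1 and 72.7 CPM (1.28 ± 0.22, adjusted p = 0.00183).

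Cartilage and bone genes were higher in the scar, with 11 of 14 called higher, 1 lower and a median of 3.12. Sox9, the master transcription factor of cartilage, was at 5.13, 9.89 and 26.8 CPM in remote and 25.7, 47.1 and 77.7 CPM in infarct libraries (2.16 ± 0.28, adjusted p = 0.001). Acan, aggrecan, the large proteoglycan of cartilage, was at 0.177, 0.257 and 7.56 against 0.621, 35.9 and 132 CPM. The infarct of mouse 9184 had the lowest of these values and lay below the remote library of mouse 9180, and the log2 fold change of 5.81 ± 1.10 (adjusted p = 0.00274) was 7.37 without mouse 9180 and 4.87 without 9171. Comp, a cartilage protein that binds collagen, rose by 3.94 ± 0.80 (adjusted p = 0.00358). The member that fell, Alpl, is an alkaline phosphatase also found in blood vessels (-0.99 ± 0.29, adjusted p = 0.018), and its call was lost without mouse 9183 (-0.94, adjusted p = 0.0537) or 9184 (-0.93, adjusted p = 0.0504).

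TGF-beta and activins are secreted signals of scar formation. In a list of their ligands, receptors and other components, 16 of 21 genes were higher and 1 lower (median 1.19). Tgfb3 was at 21.1, 33 and 148 CPM in remote and 107, 278 and 452 CPM in infarct libraries (2.78 ± 0.37, adjusted p = 0.00101). Inhba, the activin A subunit, was at 1.64, 3.91 and 15.4 against 15.2, 23.8 and 27 CPM (2.36 ± 0.42, adjusted p = 0.00213), and Tgfb1 changed less, by 0.65 ± 0.14 (adjusted p = 0.00454). The gene that fell was Eng, endoglin, a co-receptor of endothelial cells (-0.63 ± 0.14, adjusted p = 0.00509). Of 15 genes of secreted Wnt modulators and related components, 11 were higher and 1 lower (median 2.28). Sfrp2, which binds Wnt proteins outside the cell, was at 3.48, 9.14 and 182 against 314, 449 and 972 CPM (5.38 ± 0.78, adjusted p = 0.00114), without overlap, and the related Sfrp1 rose by 3.28 ± 0.43 (adjusted p = 0.001). Wif1, another Wnt inhibitor, fell from 2.14, 7.65 and 12.5 to 0.198, 1.29 and 2.29 CPM (-2.50 ± 0.48, adjusted p = 0.00288).

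Endothelial genes were lower in infarct tissue. Of 20 tested, 17 were lower and 1 higher, with a median of -0.75 (-0.82 without mouse 9180). Kdr, the main receptor for VEGF, was at 251, 351 and 416 CPM in remote and 71.9, 132 and 168 CPM in infarct libraries (-1.53 ± 0.19, adjusted p = 0.001). Cdh5, the cadherin of endothelial junctions, was at 305, 380 and 482 against 189, 216 and 271 CPM (-0.74 ± 0.13, adjusted p = 0.002). Gpihbp1, which holds lipoprotein lipase on capillaries of heart and fat, fell by 1.73 ± 0.15 on the log2 scale (adjusted p = 0.001), and Car4, a carbonic anhydrase of capillaries, by 3.12 ± 0.63 (adjusted p = 0.00348). Plvap, which forms the diaphragms of leaky vessels, was the gene that rose, from 13.1, 32.4 and 71.1 to 93.8, 126 and 145 CPM (1.95 ± 0.27, adjusted p = 0.00105). For these 5 genes the regions did not overlap.

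VEGF and angiopoietin genes had no common direction, with 3 higher, 8 lower and 6 not called of 17 and a median of 0.04 (-0.09 without mouse 9182 and -0.23 without 9184), and with 5 higher without mouse 9180. Vegfa, the main angiogenic ligand, was at 221, 348 and 499 CPM in remote and 39.8, 109 and 198 CPM in infarct libraries (-1.87 ± 0.34, adjusted p = 0.00236), and Vegfb fell by 2.10 ± 0.30 (adjusted p = 0.00108). Angpt2, which loosens vessel walls, rose from 5.60, 8.56 and 10.2 to 12.4, 25.3 and 35.8 CPM (1.53 ± 0.29, adjusted p = 0.00291). Of 16 smooth muscle and pericyte genes, 4 were higher and 6 lower (median 0.13), and 2 were higher without mouse 9170, 9171 or 9182. Kcnj8 and Abcc9, which together form the potassium channel of pericytes, with Abcc9 also active in heart muscle, fell by 1.44 ± 0.13 and 1.64 ± 0.21 (adjusted p = 0.001 for both). Myh11, the myosin of contractile smooth muscle, ranged from 43.8 to 166 CPM in remote and from 46.0 to 124 CPM in infarct libraries and was not called (0.07 ± 0.28), with a sign that changed between fits. Lymphatic genes were called in 2 of 8 cases, 1 in each direction, with 2 higher without mouse 9180 and 2 in each direction without 9184.

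Genes of recruited and lipid-laden macrophages rose in 18 of 20 cases (median 2.40), while those of resident macrophages had 4 higher and 4 lower of 11 (median -0.29). Trem2, a lipid receptor of macrophages, was at 4.79, 13.4 and 68.2 CPM in remote and 54.8, 159 and 277 CPM in infarct libraries (3.50 ± 0.51, adjusted p = 0.00115). Gpnmb, a glycoprotein of the same cells, was at 3.07, 8.88 and 84.0 against 57.6, 354 and 871 CPM (5.06 ± 0.83, adjusted p = 0.00156). In both, only the remote library of mouse 9180 lay above the lowest infarct library, which was that of mouse 9184. Spp1, osteopontin, made by such macrophages and by matrix cells, was at 0.616, 4.09 and 67.3 against 190, 248 and 720 CPM (5.87 ± 1.08, adjusted p = 0.0025; 6.53 without mouse 9180, and 5.27 without 9171 and without 9182). Ccr2, the chemokine receptor of incoming monocytes, rose by 1.91 ± 0.33 (adjusted p = 0.00185). Ly6c2, on the same list, was not called (-0.40), but was called lower without mouse 9184 (-0.60, adjusted p = 0.0311). In the fit with all mice, 1 member of the recruited list was called lower. Timd4, a receptor for dying cells on long-lived resident macrophages, was at 1.42, 2.56 and 3.0 against 0.165, 0.407 and 0.907 CPM and fell in 6 of 6 hearts (-2.42 ± 0.34, adjusted p = 0.00106). Folr2, another resident marker, had medians of 4.59 and 4.67 CPM (-0.01 ± 0.18, adjusted p = 0.966). Over the resident list, log2 fold changes ran from -2.42 (Timd4) to 2.12, so its members moved both ways.

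All 20 lysosome and phagocytosis genes were higher (median 1.52), led by the protease Ctss at 19.3, 41.0 and 277 against 280, 660 and 1150 CPM (3.90 ± 0.53, adjusted p = 0.00103). Complement genes rose in 14 of 17 cases (median 1.36). C1qa, made by macrophages, rose by 1.91 ± 0.26 (adjusted p = 0.00101), whereas C7, a late component made by fibroblast-like cells, fell by 1.86 ± 0.43 (adjusted p = 0.00663) and C3 was not called (0.72 ± 0.30, adjusted p = 0.0613), although it was without mouse 9182 (0.90, adjusted p = 0.0429). The letters GAGGAAGT, a core of the myeloid factor PU.1, stood in 2 of 13 recruited macrophage promoters (15.4%), 1 of 16 of the lysosome list (6.25%) and 1 of 11 of complement (9.09%), against 3.28% of all promoters and 3.16% of those of tested genes. The 2 recruited macrophage promoters were those of Spp1, which was higher, and of Ly6c2, which was not called with all mice.

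Lymphocyte and neutrophil genes were higher too, at low levels. Of 14 T and NK cell genes tested, 11 rose and 1 fell (median 1.96). Cd3e, a chain of the T cell receptor complex, was at 0.0682, 0.272 and 0.346 CPM in remote and 0.842, 1.41 and 2.04 CPM in infarct libraries, without overlap (2.44 ± 0.35, adjusted p = 0.00115). The gene that fell was Ctla4, an inhibitory receptor of T cells, at 0.976, 2.06 and 3.35 against 0.120, 0.304 and 2.39 CPM (-2.25 ± 0.48, adjusted p = 0.00458), lower in 6 of 6 hearts. So Ctla4 and Cd3e moved in opposite directions in every heart. Every remote library held more Ctla4 than Cd3e, and which cells the Ctla4 reads came from was not tested. Neutrophil genes rose in 6 of 8 cases (median 2.05). S100a8, an alarmin of neutrophils, was at 0.420, 0.888 and 1.35 against 1.08, 3.84 and 20.2 CPM (2.36 ± 0.54, adjusted p = 0.00615), highest in the infarct of mouse 9184. G0s2, on the same list but also an inhibitor of fat breakdown in muscle and fat, fell by 1.88 ± 0.24 (adjusted p = 0.001). MHC class II and dendritic cell genes rose in 16 of 18 cases (median 1.51), with H2-Ab1 up by 1.49 ± 0.20 (adjusted p = 0.00101). The exception was Zbtb46, a factor of dendritic cells and endothelium (-0.65 ± 0.12, adjusted p = 0.00222). B cell genes were called in 5 of 7 cases, 4 of them higher (median 1.21, and -0.29 in mouse 9184), and in 3 cases without mouse 9171, 9182 or 9183. Mast cell genes were called lower in 2 of 6 cases and in 1 without mouse 9171, 9182 or 9183, and 1 was higher without mouse 9180.

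Chemokine genes rose in 16 of 23 cases and fell in 2 (median 1.35), and interleukin and cytokine receptor genes rose in 18 of 23 with none lower (median 1.81). The chemokines that fell were Ccl11 (-1.96) and Cxcl14 (-0.99). Neither was called without mouse 9182, and Ccl11 was not called without 9170, 9171 or 9183 either. Il1b, the inflammatory cytokine interleukin 1 beta, was at 0.821, 1.27 and 2.33 CPM in remote and 4.93, 7.17 and 45.4 CPM in infarct libraries (2.85 ± 0.41, adjusted p = 0.00112). Il33, an alarmin of stromal cells, was at 5.05, 7.24 and 9.83 against 21.4, 50.5 and 149 CPM (2.75 ± 0.48, adjusted p = 0.00193). Il11, a fibroblast cytokine, rose from at most 0.567 CPM to at least 1.12 CPM (2.13 ± 0.33, adjusted p = 0.00131). Cxcl5, which attracts neutrophils, was at 0.294, 0.740 and 2.14 against 3.85, 10.2 and 304 CPM (4.05 ± 0.82, adjusted p = 0.00351; 4.98 without mouse 9180 and 3.36 without 9184). Il1b, Il33, Il11 and Cxcl5 did not overlap between regions, and mouse 9184 had the highest infarct value of Il1b and Cxcl5. Ccl2, which attracts monocytes, was not called (1.35 ± 0.55, adjusted p = 0.0624), although it was without mouse 9180 (1.62, adjusted p = 0.0358) or 9184 (0.83, adjusted p = 0.0479).

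Interferon-stimulated genes were higher in 14 of 20 cases, with a median of 0.81 and not 1 gene whose regions did not overlap. Their median was -0.12 in mouse 9180 and 1.74 in mouse 9184. Irf7, a transcription factor of this response, was at 22.9, 38.2 and 106 CPM in remote and 60.2, 82.6 and 123 CPM in infarct libraries (1.03 ± 0.34, adjusted p = 0.03), and its call was lost without mouse 9170, 9171, 9182 or 9184 (0.75 to 1.07, adjusted p = 0.0536 to 0.0888). The count of called genes was 19 without mouse 9180, 9 without mouse 9184 and 10 to 13 without each of the others.

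**Figure D4:**
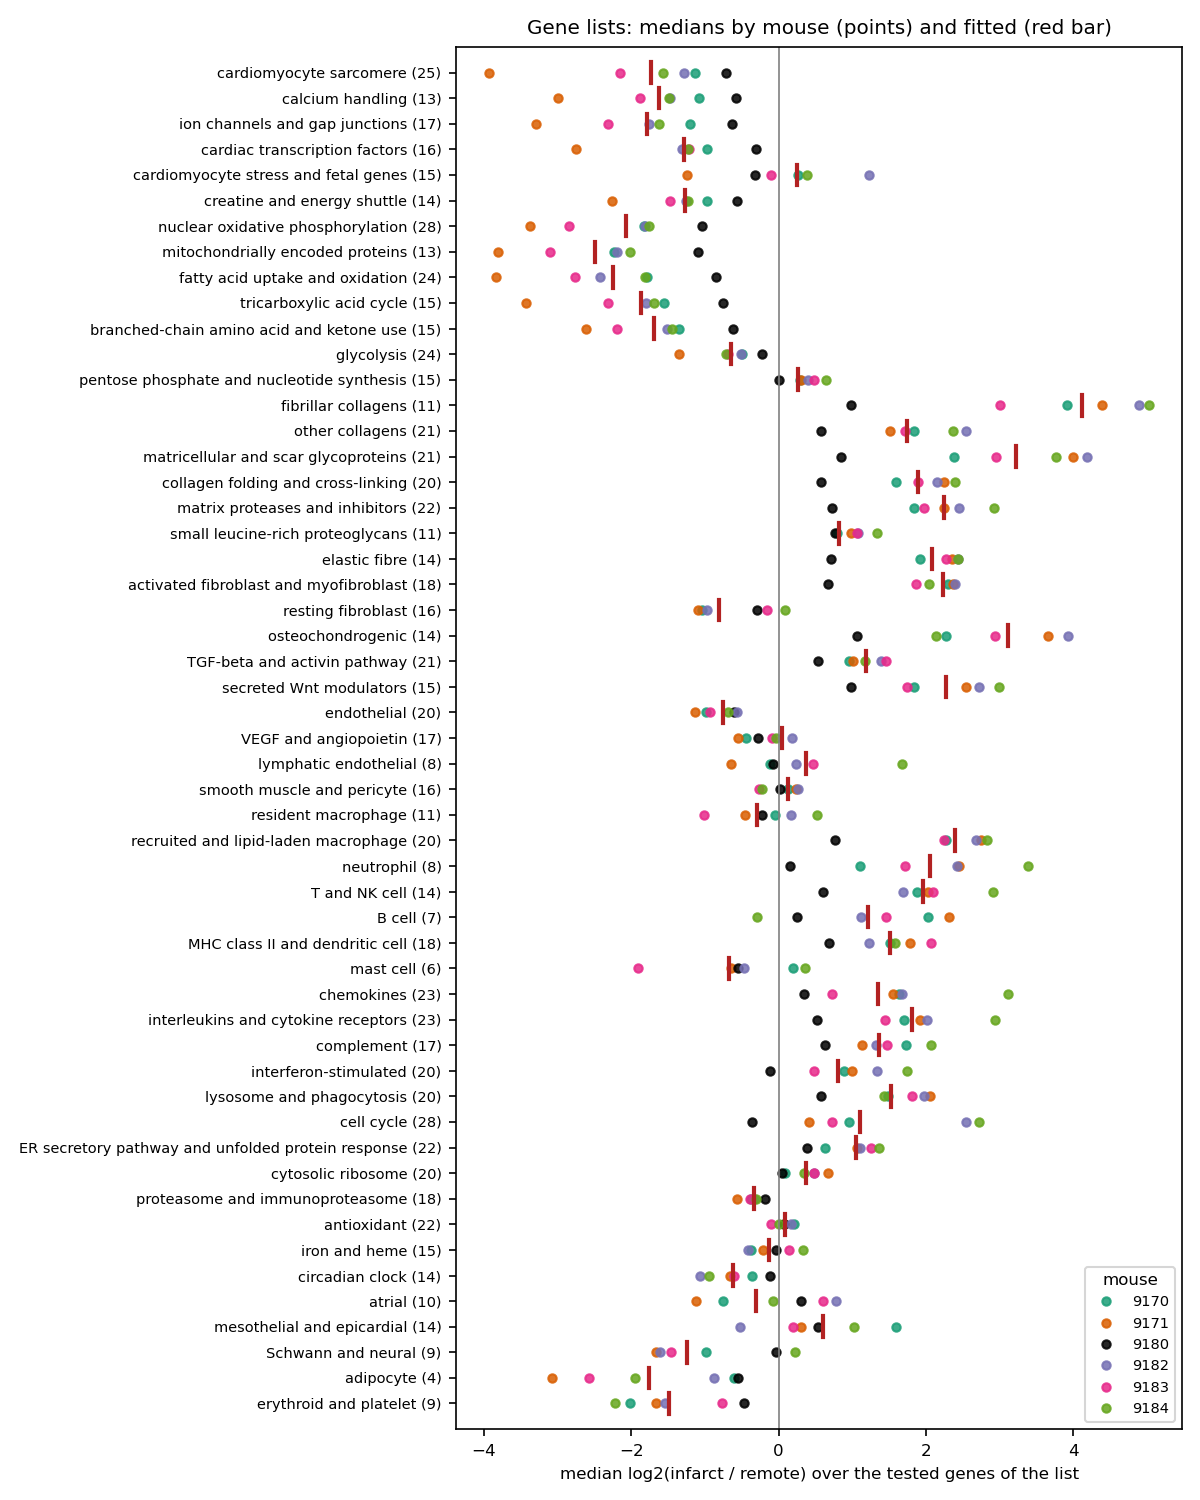
Median log2 ratio of infarct to remote CPM over the tested genes of each list, by heart (points) and as the median of the fitted fold changes (red bars), with the number of genes tested in parentheses. Sarcomere, calcium handling and mitochondrial lists lie left of 0 and matrix and recruited macrophage lists right of 0 in all 6 hearts. In these lists mouse 9180 lies nearest 0, and in the sarcomere, calcium handling and mitochondrial lists mouse 9171 lies farthest left.

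Cell cycle genes differed in direction between hearts. Of 28 tested, 13 were higher, 2 lower and 13 not called, with a median of 1.10, and the counts moved to 25 higher without mouse 9180, 9 without 9171 and 4 without each of 9170, 9182, 9183 and 9184. By heart, the median ran from -0.36 in mouse 9180 to 2.72 in mouse 9184. Cdk1, the kinase that drives mitosis, was at 1.37, 5.45 and 24.1 CPM in remote and 15.1, 18.2 and 29 CPM in infarct libraries (1.75 ± 0.59, adjusted p = 0.0318). Its log2 fold change was 2.15 without mouse 9180, and the call was lost without mouse 9170, 9182, 9183 or 9184 (1.34 to 1.89, adjusted p = 0.0594 to 0.0791). The remote spread, from 1.37 in mouse 9182 to 24.1 in mouse 9180, was wider than the infarct spread. Mki67, the proliferation marker, was at 1.30, 6.77 and 20.8 against 8.85, 11.0 and 21.3 CPM and was not called (0.95 ± 0.53, adjusted p = 0.153), but was without mouse 9180 (1.27, adjusted p = 0.0497). Mcm6, a subunit of the replication helicase, rose by 1.06 ± 0.22 (adjusted p = 0.00418). Ccnd1, cyclin D1, fell in 6 of 6 hearts from 61.4, 79.3 and 136 to 29.2, 37 and 58.5 CPM (-1.10 ± 0.22, adjusted p = 0.00355).

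Late cell cycle promoters carry the CHR element (TTTGAA) and CCAAT boxes. The CHR letters stood in 12 of 21 cell cycle promoters with an entry (57.1%), against 18.1% of all promoters and 12.2% of those of tested genes. CCAAT stood in 19 of 21 (90.5%), against 37.9% and 38.5%. The E2F letters TTTCCCGC and TTTGGCGC stood in 2 (9.52%) and 3 (14.3%) of 21. All promoters held them at 1.11% and 0.537%, and those of tested genes at 2.02% and 0.955%. The promoters of Cdk1 and of Top2a, the DNA topoisomerase of dividing cells, each hold 2 copies of the CHR letters and are shown with them in capitals, the second copy of Top2a being on the opposite strand.
Cdk1, chr10:69352897-69353008 (- strand): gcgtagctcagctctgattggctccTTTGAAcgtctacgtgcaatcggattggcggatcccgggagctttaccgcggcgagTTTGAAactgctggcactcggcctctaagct
Top2a, chr11:99024182-99024393 (- strand): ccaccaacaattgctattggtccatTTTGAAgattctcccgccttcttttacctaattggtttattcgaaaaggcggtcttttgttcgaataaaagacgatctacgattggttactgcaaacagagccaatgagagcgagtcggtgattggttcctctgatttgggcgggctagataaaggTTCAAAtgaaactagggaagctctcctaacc
Top2a was at 1.37, 9.04 and 33.9 CPM in remote and 18.2, 23.6 and 37.6 CPM in infarct libraries (1.57 ± 0.58, adjusted p = 0.0449). Like Cdk1, it was lower in the infarct than in the remote library of mouse 9180 and higher in the other 5 hearts. The call of Top2a held without mouse 9180 (1.95, adjusted p = 0.0099) and was lost without any 1 of the other 5 mice (1.17 to 1.78, adjusted p = 0.0634 to 0.108).

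Genes of secretion and protein handling rose in 15 of 22 cases and fell in 2 (median 1.05). Creb3l1, a transcription factor that controls collagen secretion, was at 9.92, 16.7 and 25.6 CPM in remote and 39.6, 53.8 and 107 CPM in infarct libraries (1.90 ± 0.32, adjusted p = 0.00181). Kdelr3, a receptor that returns proteins to the endoplasmic reticulum, rose by 2.29 ± 0.32 (adjusted p = 0.00105). Hspa5, the main chaperone of the unfolded protein response, had medians of 406 and 391 CPM (0.00 ± 0.14, adjusted p = 0.998), and Herpud1, a target of that response, fell by 1.12 ± 0.17 (adjusted p = 0.00129). Cytosolic ribosome genes were higher in 10 of 20 cases by small amounts (median 0.37), a count that was 4 without mouse 9182, 5 without 9184 and 6 without 9170 or 9183. Rpl3l, the form of ribosomal protein L3 found in heart and skeletal muscle, was at 115, 361 and 546 against 2.40, 38.5 and 93.5 CPM (-3.76 ± 0.76, adjusted p = 0.00348), and Rpl3 itself rose by 0.94 ± 0.19 (adjusted p = 0.00366). Proteasome and immunoproteasome genes were lower in 11 of 18 cases and higher in 1 (median -0.34). Those lower numbered 8 without mouse 9171, 9183 or 9184, 9 without 9170, 10 without 9182 and 13 without 9180.

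Antioxidant genes split evenly, 10 higher and 10 lower of 22 (median 0.09). Hmox1, heme oxygenase 1, which breaks down heme, was at 10.1, 17 and 43.5 CPM in remote and 84.0, 136 and 187 CPM in infarct libraries (2.83 ± 0.36, adjusted p = 0.001). Gpx7, a peroxidase of the endoplasmic reticulum, rose by 1.99 ± 0.31 (adjusted p = 0.00137). The mitochondrial enzymes Sod2 and Prdx3 fell by 2.18 ± 0.35 and 1.46 ± 0.27 (adjusted p = 0.0015 and 0.00255), Sod2 from 352, 783 and 871 to 61.6, 183 and 275 CPM. Among 15 iron and heme genes, 6 were higher and 6 lower. Tfrc, the transferrin receptor for iron uptake, fell from 35.2, 61.2 and 78.9 to 3.90, 11.4 and 21.3 CPM (-2.41 ± 0.31, adjusted p = 0.001), and Slc11a1, the iron transporter of phagosomes, rose from 5.46, 9.85 and 24.5 to 36.3, 56.4 and 106 CPM (2.50 ± 0.33, adjusted p = 0.00101). The regions did not overlap for Hmox1, Sod2, Tfrc or Slc11a1.

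Clock genes were lower in 10 of 14 cases and higher in 1 (median -0.62). The count of lower genes was 8 without mouse 9171, 9182 or 9183 and 9 without 9170 or 9184. Dbp, an output gene of the clock, was at 16.7, 18 and 33.7 CPM in the remote libraries of mice 9170, 9171 and 9180 and at 113, 95.3 and 96.2 CPM in those of 9182, 9183 and 9184. It fell in 6 of 6 hearts (-1.31 ± 0.17, adjusted p = 0.001). Arntl, the core activator also called Bmal1, had the opposite order, at 26.6, 27.9 and 18 CPM against 5.61, 5.61 and 3.75 CPM in the same remote libraries. Its difference between regions was 0.23, 0.21 and 0.38 on the log2 scale in the first 3 mice and 1.84, 1.64 and 2.16 in the other 3. The fitted value was 1.04 ± 0.31 (adjusted p = 0.0191), and the call was lost without mouse 9182 (0.88, adjusted p = 0.0574) or 9183 (0.91, adjusted p = 0.0603). Per3, a clock repressor, fell by 0.67 ± 0.17 (adjusted p = 0.0104), by 0.09 to 0.42 in the first 3 and by 0.97 to 1.18 in the other 3 mice. The hours at which hearts were taken are not given in the sources used here.

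**Figure D5:**
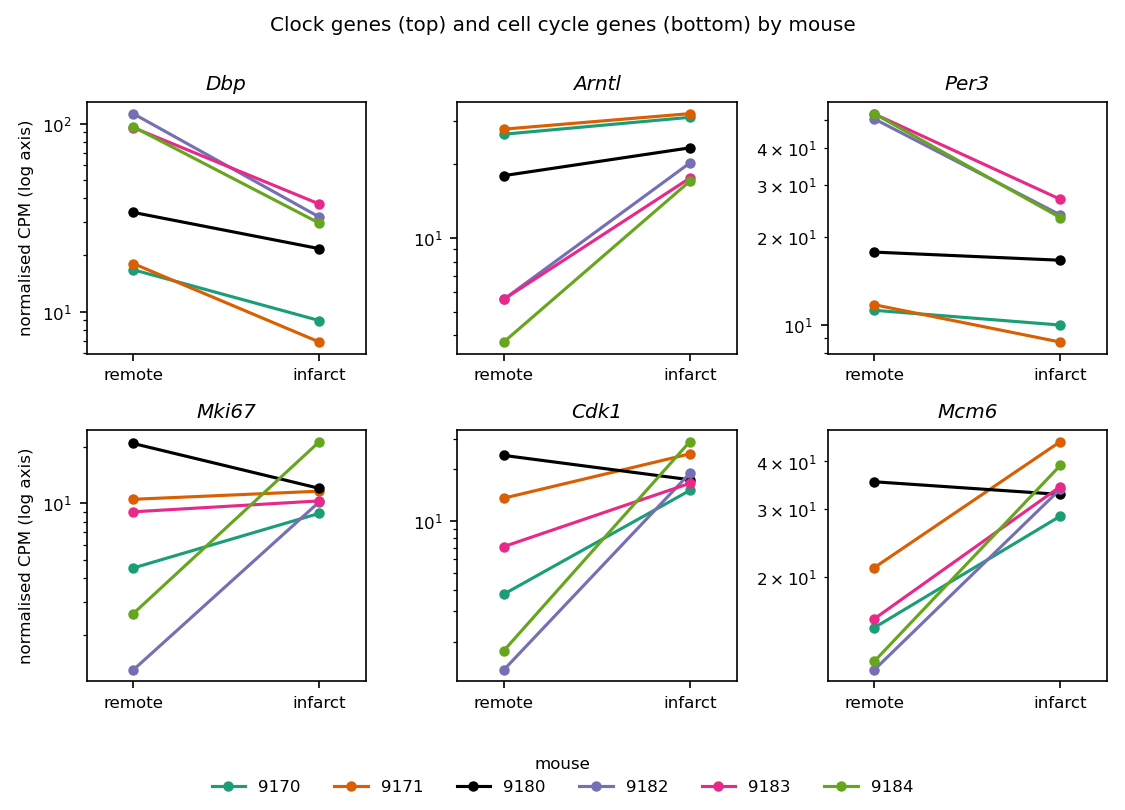
Normalised CPM (log axis) of 3 clock genes (top) and 3 cell cycle genes (bottom) in the remote and infarct library of each heart, with 1 line per mouse. Remote levels of Dbp and Per3 are high and those of Arntl low in mice 9182, 9183 and 9184 and the reverse in 9170, 9171 and 9180, and the cell cycle genes fall from remote to infarct tissue in mouse 9180.

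Genes of nerves, blood and the heart's surface made up the remaining lists. Of 9 Schwann cell and neural genes tested, 5 were lower and 2 higher (median -1.25). Dbh, which makes noradrenaline in sympathetic neurons, was at 3.68, 9.28 and 12.1 CPM in remote and 0.461, 1.07 and 1.72 CPM in infarct libraries, without overlap and lower in 6 of 6 hearts (-3.02 ± 0.33, adjusted p = 0.001). Of 9 erythroid and platelet genes, 6 were lower and 3 higher, with the globin gene Hba-a1, which shares reads with a near-identical copy, down by 1.65 ± 0.25 (adjusted p = 0.00125) and Pf4, a chemokine of platelets and some macrophages, up by 0.99 ± 0.22 (adjusted p = 0.00557). Mesothelial genes were called in 4 of 14 cases, all higher (median 0.61), and in 7 without mouse 9182. Their median by heart ran from -0.53 in mouse 9182 to 1.59 in mouse 9170, and was 0.36 in the fit without mouse 9170. Atrial genes had 4 higher (2 without mouse 9183) and 3 lower of 10, with a median of -0.31 that was 0.12 without mouse 9170 and 0.10 without 9171, the mice with atrial genes in the remote piece. Of 4 adipocyte genes tested, 3 were lower. Fewer passed the count filter without mouse 9170 (3 tested, 2 lower) or 9171 (2 tested, 2 lower). The mean log2 CPM of the list in remote tissue was 6.31 and 5.96 in these mice. In the other remote libraries it was 3.04 to 4.83.

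Several genes outside the lists were among those with the largest fold changes or the smallest p. Cemip, which breaks down hyaluronan, was at 0.0684, 0.244 and 30.5 CPM in remote and 16.6, 51.7 and 160 CPM in infarct libraries (6.13 ± 1.10, adjusted p = 0.00219; 7.80 without mouse 9180 and 5.06 without 9171). Strit1, which encodes a small membrane protein that stimulates the calcium pump of muscle, was at 4.72, 20.8 and 32.7 against 0.0658, 0.554 and 3.06 CPM (-4.90 ± 0.63, adjusted p = 0.001). Among the genes with the smallest p, Slc28a2, a nucleoside carrier, fell by 1.80 ± 0.15 (adjusted p = 0.001), between 1.21 and 2.32 in each heart. Dll4, a Notch ligand of arterial and tip endothelial cells, fell by 1.20 ± 0.09 and Meox2, a transcription factor of heart capillaries, by 0.90 ± 0.08 (adjusted p = 0.001 for both). Kdm5b, a histone demethylase, rose from 15.5, 19.7 and 24.6 to 36.9, 41.9 and 52.5 CPM (1.11 ± 0.11, adjusted p = 0.001), and Fzd7, a Wnt receptor, by 1.21 ± 0.12 (adjusted p = 0.001).

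Whether CKD changes the difference between infarct and remote tissue was tested as an interaction in 26 libraries of 13 mice with both regions. The CKD mice had eaten the same diet with 0.3% adenine for 10 days and 0.15% for 11 days, 4 days of it before and 7 after infarction. With edgeR, 0 of 14767 genes (0.0%) passed. The lowest adjusted p was 0.255, and 2570 genes had an unadjusted p under 0.05. DESeq2 called 399 genes, 383 of them with a more positive and 16 with a more negative difference in CKD hearts. The count by edgeR was also 0 without mouse 9180 (3949 at an unadjusted p under 0.05) and without CKD mouse 9179, whose remote library has conflicting labels (1978). The region differences of control hearts were therefore shown neither to differ from those of CKD hearts nor to equal them.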

How the data were processed

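Total RNA of snap-frozen infarct and remote tissue was made into libraries with the NEBNext Ultra II RNA kit, per the labels' protocols. The authors deposited 1 table of read counts for 27304 genes and 27 libraries. Kallisto 0.48.0 and the genome build GRCm39 are named per the submitters' processing notes. The annotation, the strand setting and the step from kallisto's estimates to whole counts are not given in the sources used here. Gene symbols turned into dates (27) were restored from their Ensembl IDs.

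For the 12 control libraries, edgeR 4.0.16 (R 4.3.3, filterByExpr, TMM, quasi-likelihood F test, Benjamini-Hochberg, threshold 0.05) was fitted with region and mouse, which left 5 residual degrees of freedom. A change beyond 2-fold was tested with glmTreat. Levels are CPM of the TMM-scaled total. Ratios used counts plus 0.5, with an exact sign-flip test over mice. The pairing comes from the same heart, by the mouse number in the titles. Deviations of same-mouse libraries correlated at 0.03 to 0.31 (median 0.13), with 0 as the median between other mice; 3 of 6 libraries (mice 9170, 9171 and 9184) correlated best with their own mouse, and those of 9180, 9182 and 9183 with the library of another mouse. Pairs of libraries of 1 group differed beyond sampling noise (lowest chi-square per degree of freedom 10.9 over 30 pairs), so none was counted as a duplicate. In simulated counts of this comparison (14328 genes), 67, 67 and 66 genes were changed by 1.5-, 2- and 4-fold. Of these, 22.4%, 59.7% and 92.4% were recovered. In the data 9038 genes were called, and the Benjamini-Hochberg adjustment depends on the share of changed genes. The recovery rates therefore hold for the simulated setting only.

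Named genes are the 12 called genes per direction with the smallest p and the 12 with the largest fold change (at least 5 CPM in a region), 3 members of each list by fold change and up to 2 against its majority, the paralog pairs, and a fixed set of well-known genes. Acadm, Col6a6, Cycs, Dcn, Folr2, Hadha, Irf7, Lrrc15, Ly6c2, Mcm6, Per3, Sdhb, Sln, Smoc2 and mt-Co1 fall outside that rule and were chosen after their values were seen. Members and gene lists were chosen with earlier results of these data known, and some genes sit in several lists. Alternatives were no mouse block, other scaling factors and filters, all 27 libraries, DESeq2 1.42.0, limma-voom (limma 3.58.1) and leaving out each mouse. The ratio of 1 paralog pair and the values of some genes are not reported here.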

Additional observations from a re-analysis of the deposited data

Results flagged for a closer look

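A check for outlying libraries covered 266 sets of 6 values (lists and only part of the named genes, in each region). In 27 of them, the gap of a library to its nearest neighbour exceeded Dixon's 95% critical value of 0.625 of the range. Chance flags about 1 in 20 such sets.

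The remote library of mouse 9180 stood apart in 15 of them. Its mean log2 CPM was low for calcium handling (8.10), creatine and energy shuttle (8.38), nuclear oxidative phosphorylation (9.28), the tricarboxylic acid cycle (8.59) and branched-chain amino acid and ketone use (6.05), and high for collagen folding and cross-linking (6.81). Its CPM was low for Myh6 (13300), Kcnip2 (57.7), Esrrg (10.1), Mb (4480), Slc2a4 (199) and Rpl3l (115), and high for Fap (12.4), Runx1 (29.6) and Acan (7.56).

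The infarct library of mouse 9184 stood apart in 7. It was high in Timp1 (663 CPM), Cxcl5 (304 CPM), Il1b (45.4 CPM), Ifit1 (15.8 CPM) and Mki67 (21.3 CPM), and low in Acan (0.621 CPM) and in the mean log2 CPM of the osteochondrogenic list (3.23). The infarct library of mouse 9170 was high in the mean log2 CPM of mesothelial (5.27) and adipocyte genes (5.73). The infarct library of mouse 9171 was low in Tnnt2 (1330 CPM) and high in Runx1 (92.4 CPM), and that of mouse 9182 was low in Ccr2 (8.49 CPM).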

How the results depend on the processing

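The count of genes that differed between regions was 9038 without the replicate block too, 8661 of them shared in the same direction, and 8733 to 9890 over the other scalings, filters and tools. Beyond 2-fold, 1626 to 1885 genes passed under the other settings, while leaving out 1 mouse gave 0 to 2966 in all, 0 to 1552 higher and 0 to 1414 lower, and the cause was not tested. The mitochondrial share changed by -14.4 to -12.2 percentage points without 1 mouse. The interaction with CKD gave 399 genes with DESeq2 against 0 with edgeR, also without the block (2502 at an unadjusted p under 0.05).

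Signs reversed only for values that were not called or not tested, and the cause was not tested. Without the replicate block, the stress and fetal median was -0.21, Tnni1 -0.21 and Myh11 -0.01, and with all 27 libraries and no block Tnni1 was -0.23, Myh11 -0.05 and Hspa5 -0.04. Hspa5 was -0.01 with DESeq2 size factors and with DESeq2, -0.00 over genes of at least 1 CPM and -0.10 with limma-voom, which gave 0.23 for Acta1. Without 1 mouse, ranges were -0.03 to 0.48 (stress and fetal median), -0.23 to 0.15 (VEGF and angiopoietin median), -0.67 to 0.12 (atrial median), -0.03 to 0.54 (Ankrd1), -0.07 to 0.09 (Hspa5) and -0.08 to 0.35 (Myh11). Of 303 named genes, 18 lost their call without the block, and 3 (without mouse 9180) to 20 (without 9182 or 9183) with 1 mouse left out. Genes near 0 counts, such as Tnni1, are limited by depth.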
